A study of Mus musculus with 3 samples.

Results

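Carriers of organic solutes, sugars and drugs were examined as 103 autosomal protein-coding genes of 20665 such genes in the RefSeq GRCm38.p6 gene table. They were taken by symbol from 11 families. The families were the facilitative sugar carriers (Slc2), the sodium-coupled sugar, inositol and monocarboxylate carriers (Slc5), the bile acid carriers (Slc10), the sulfate and dicarboxylate carriers (Slc13), the peptide carriers (Slc15), the monocarboxylate carriers (Slc16), the organic ion carriers (Slc22), the nucleoside carriers (Slc28 and Slc29), the drug extruders (Slc47) and the organic anion polypeptides (Slco). Of these genes, 37 were listed as proximal tubule carriers from textbook knowledge, with earlier results of these data known, and 66 as other carriers. The histone mark H3K27me3 was measured by ChIP-seq in C57BL/6 mouse kidney, in 1 library labelled ADA-treated and 1 labelled untreated, beside an input labelled untreated. ADA is spelled as in the labels. The age and sex of the mice, and the number behind each library, are not stated in the labels. The pod-SAHH-/- mice that the series title names were not analysed here.

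The proximal tubule is the segment of the nephron that takes back filtered glucose, dicarboxylates, peptides and urate, and secretes drugs and other organic ions into the urine. Its sugar and drug carriers sit in the apical or the basolateral membrane of the same cells, so that a solute crosses the cell by an entry carrier on one side and an exit carrier on the other. H3K27me3 is the histone mark placed by the Polycomb complex PRC2. In mammals it is known to gather at repressed genes with CpG-rich promoters, and in whole kidney a peak can come from any of the cell types present.

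Sequencing depth was 20602041 ChIP fragments for ADA-treated and 18849785 for untreated kidney (1.09 times as many). From these, 17612 and 8074 peaks were listed. Fragment pileup is the authors' mean number of overlapping fragments over a peak, set against a background of 3.24 fragments in both lists, and fold enrichment is their ratio after 1 is added to each. No listed peak had a pileup under 10, and coverage outside the peaks was not read. A gene without a peak may hold fragments that fell short of a call, and is not shown to lack the mark. With 1 library a group, differences between the lists have no replicate check. Shares carry exact binomial (Clopper-Pearson) intervals at 95%, which reflect counting error and treat neighbouring genes as independent. Of 12 segment and cell type genes looked up for background, Lrp2, Slc34a1, Podxl and Slc12a3 had a peak near an end in the ADA-treated list alone and Aqp2 in both. A repressive mark in whole tissue cannot check the tissue label, and none of these genes was used to name cells.

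The promoter windows of 7 carriers show how CpG-rich and CpG-poor promoters with and without a peak look. They are RefSeq sequences of GRCm38.p6, from 250 bases before to 50 bases after the annotated start, 5′ to 3′, in lower case with each CpG in capitals. The first 4 windows sat beneath a peak of the ADA-treated list, the last 3 beneath no peak of either list. Slc28a1 is CpG-poor with a peak and Slc5a8 CpG-rich without one, unlike the others. Slc5a6 encodes the sodium-dependent multivitamin carrier (chr5:31048513-31048812, minus strand, 26 CpG). Slc16a1 encodes the lactate carrier MCT1 (chr3:104638414-104638713, plus strand, 42 CpG). Slc22a5 encodes the carnitine carrier OCTN2 (chr11:53891654-53891953, minus strand, 34 CpG). Slc28a1 encodes the nucleoside carrier CNT1 (chr7:81114549-81114848, plus strand, 4 CpG). Slc5a8 encodes a sodium-coupled lactate carrier (chr10:88885742-88886041, plus strand, 20 CpG). Slc2a2 encodes the glucose exit carrier GLUT2 (chr3:28697653-28697952, plus strand, 2 CpG). Slc22a6 encodes the organic anion carrier OAT1 (chr19:8617746-8618045, plus strand, 2 CpG).
Slc5a6: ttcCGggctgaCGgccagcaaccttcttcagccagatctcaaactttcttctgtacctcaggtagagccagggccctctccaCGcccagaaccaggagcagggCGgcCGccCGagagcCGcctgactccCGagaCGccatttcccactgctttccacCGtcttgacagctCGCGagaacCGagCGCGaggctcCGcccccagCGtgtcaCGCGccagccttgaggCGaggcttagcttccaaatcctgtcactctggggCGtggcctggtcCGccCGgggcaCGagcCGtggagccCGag
Slc16a1: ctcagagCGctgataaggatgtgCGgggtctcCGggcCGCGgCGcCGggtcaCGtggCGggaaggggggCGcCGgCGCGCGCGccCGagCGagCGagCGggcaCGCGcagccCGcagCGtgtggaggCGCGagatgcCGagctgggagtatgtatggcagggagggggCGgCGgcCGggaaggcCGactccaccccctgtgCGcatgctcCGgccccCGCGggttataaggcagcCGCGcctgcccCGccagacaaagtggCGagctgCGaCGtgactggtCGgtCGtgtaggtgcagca
Slc22a5: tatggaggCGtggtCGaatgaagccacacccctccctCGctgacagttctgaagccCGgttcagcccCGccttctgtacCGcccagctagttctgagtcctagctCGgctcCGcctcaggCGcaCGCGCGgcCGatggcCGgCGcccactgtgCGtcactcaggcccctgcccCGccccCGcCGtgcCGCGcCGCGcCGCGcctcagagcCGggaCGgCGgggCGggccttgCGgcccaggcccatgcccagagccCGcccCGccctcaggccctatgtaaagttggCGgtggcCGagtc
Slc28a1: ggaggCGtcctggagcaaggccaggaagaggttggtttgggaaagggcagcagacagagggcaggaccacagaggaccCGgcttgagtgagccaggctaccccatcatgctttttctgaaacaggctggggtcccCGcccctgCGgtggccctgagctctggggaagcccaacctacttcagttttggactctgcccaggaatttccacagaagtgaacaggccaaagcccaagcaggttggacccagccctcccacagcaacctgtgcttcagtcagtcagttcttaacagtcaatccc
Slc5a8: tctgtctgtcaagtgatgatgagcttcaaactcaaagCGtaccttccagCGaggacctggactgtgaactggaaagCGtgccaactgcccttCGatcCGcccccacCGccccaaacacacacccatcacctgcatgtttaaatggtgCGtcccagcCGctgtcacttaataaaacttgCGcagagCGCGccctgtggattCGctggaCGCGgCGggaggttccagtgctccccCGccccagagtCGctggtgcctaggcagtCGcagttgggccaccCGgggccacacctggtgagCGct
Slc2a2: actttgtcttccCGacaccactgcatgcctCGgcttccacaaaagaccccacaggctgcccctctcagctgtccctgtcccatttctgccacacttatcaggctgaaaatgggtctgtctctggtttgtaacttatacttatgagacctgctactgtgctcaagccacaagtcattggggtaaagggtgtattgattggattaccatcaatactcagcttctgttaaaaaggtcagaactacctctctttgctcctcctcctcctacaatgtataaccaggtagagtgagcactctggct
Slc22a6: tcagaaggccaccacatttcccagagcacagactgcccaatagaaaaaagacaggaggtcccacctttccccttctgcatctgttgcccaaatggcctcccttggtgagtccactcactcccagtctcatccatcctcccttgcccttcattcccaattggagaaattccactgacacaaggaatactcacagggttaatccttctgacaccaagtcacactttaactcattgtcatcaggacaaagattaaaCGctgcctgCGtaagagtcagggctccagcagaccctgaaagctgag

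The share of carriers with a peak within 2 kb of an end was close to that of genes overall at the authors' threshold. In the ADA-treated list it was lower among stronger peaks, and also where a peak had to cover a gene end or meet a promoter window. A peak of the ADA-treated list lay within 2 kb of either end of 46 of 103 carriers (44.7%, interval 34.9 to 54.8%), where 49.0% of all autosomal protein-coding genes had one. For the untreated list the count was 20 of 103 (19.4%, 12.3 to 28.4%), beside 24.1% of all genes. Both lists marked 15 carriers (14.6%, beside 21.8% of all genes), the ADA-treated list alone 31 (30.1%, beside 27.2%) and the untreated list alone 5 (4.85%, beside 2.30%), which left 52 (50.5%, beside 48.7%) with none. The ADA-treated list called 2.30 times as many carriers as the untreated list, and 2.03 times as many genes overall. Over the gene body, from the start to the end of the gene, 52 carriers (50.5%) had an ADA-treated peak and 27 (26.2%) an untreated one, beside 51.4% and 26.8% of all genes. Both lists marked the body of 24 carriers (23.3%, beside 24.3% of all genes), the ADA-treated list alone 28 (27.2%, beside 27.1%) and the untreated list alone 3 (2.91%, beside 2.59%), and 46.1% of all genes had none there. With 2 kb added on both sides, 55 carriers (53.4%, beside 53.9%) had an ADA-treated peak and 31 (30.1%, beside 29.5%) an untreated one. Of these, 27 (26.2%, beside 26.96%) had both, 28 (27.2%, beside 26.97%) the ADA-treated one alone and 4 (3.88%, beside 2.54%) the untreated one alone. Near an end, at a pileup of at least 12, the ADA-treated list marked 23 of 103 carriers (22.3%, 14.7 to 31.6%), beside 32.6% of all genes. At a q of at most 5% it marked 29 (28.2%, beside 40.2%) there. A gene end lay inside an ADA-treated peak in 20 carriers (19.4%, beside 32.7%), and a peak overlapped a promoter window in 23 of the 85 with one (27.1%, 17.99 to 37.8%, beside 41.5%). Of these 85, 34 had an ADA-treated peak near an end, beside 8092 of the 16457 genes with a window. No peak lay anywhere over the gene with 2 kb on both sides in either list for 44 of 103 carriers (42.7%, beside 43.5% of all genes). Median gene length was 35443 bp for carriers and 17491 bp for all genes, so these body and flank counts compare windows of unlike length. The part of gene length in them was not tested.

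Proximal tubule carriers had an ADA-treated peak near an end in 11 of 37 genes (29.7%, 15.9 to 46.98%), and the other carriers in 35 of 66 (53.0%, 40.3 to 65.4%). These 2 intervals overlap. In whole kidney, a mark in fewer cells and less of it per cell cannot be told apart, and expression was not measured. In the untreated list the counts were 6 of 37 (16.2%, 6.19 to 32.0%) and 14 of 66 (21.2%, 12.1 to 33.0%). Over the gene body the ADA-treated counts were 11 of 37 (29.7%, 15.9 to 46.98%) and 41 of 66 (62.1%, 49.3 to 73.8%), and these intervals do not overlap. They treat genes as independent, while 6 genes of the proximal tubule list, Slc22a19 to Slc22a30, are neighbours with 1 ADA-treated peak among them. The list was also chosen with earlier results of these data known, so the gap is a description and not a test. At a pileup of at least 12, fewer peaks lie at the caller's limit. Near an end, the ADA-treated list then marked 3 of 37 proximal tubule carriers (8.11%) and 20 of 66 others (30.3%), beside 32.6% of all genes. These 3 genes were Slc22a5, Slc22a4 and Slc22a29. Slc5a10 reached this pileup inside the gene alone (15.3). Median gene length was 40676 bp for the proximal tubule carriers and 30196 bp for the others, and the part of gene length in the body counts was not tested.

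**Figure D1:**
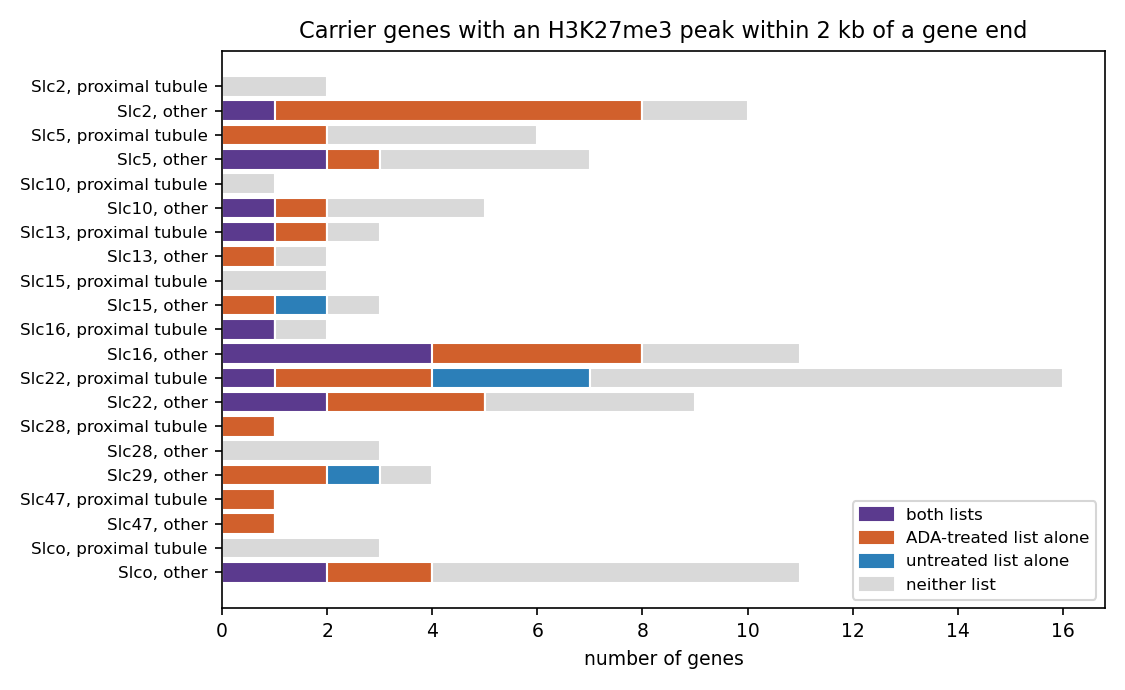
Number of carrier genes in each family (horizontal axis, genes), split into proximal tubule carriers and others, and coloured by the list that placed a peak near a gene end. The Slc2 and Slc16 bars of other carriers are mostly coloured (8 of 10 and 8 of 11 genes), and none of the 3 proximal tubule Slco genes has a peak.

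Among carriers with a promoter window, the lower share of proximal tubule carriers went with fewer CpG-rich promoters. RefSeq promoter windows were found for 85 of the 103 carriers (31 proximal tubule and 54 others), and for 16457 genes overall. Of these carriers, 9 of 31 and 25 of 54 had an ADA-treated peak near an end, beside 11 of 37 and 35 of 66 of all carriers. The gap was smaller in this part, because the other carriers without a window, such as Slc2a4, Slc16a7 and Slco3a1, mostly had such a peak. They are left out of the CpG and strand counts. A gene was called CpG-rich when any of its windows had a GC share of at least 50% and an observed over expected CpG ratio of at least 0.6, a split chosen after the data had been seen. By this rule 6 of 31 proximal tubule carriers (19.4%), 23 of 54 others (42.6%) and 49.9% of all genes were CpG-rich. Within the CpG-rich genes an ADA-treated peak lay near an end of 4 of 6 proximal tubule carriers (66.7%, 22.3 to 95.7%) and 17 of 23 others (73.9%, 51.6 to 89.8%), beside 74.6% of all genes. Within the CpG-poor genes the counts were 5 of 25 (20%, 6.83 to 40.7%) and 8 of 31 (25.8%, 11.9 to 44.6%), beside 23.9% of all genes. In each promoter class the share of either group lay within the interval of the other, and the part of CpG content in the difference between the groups was not tested.

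In the untreated list 10 of 29 CpG-rich carriers (34.5%) and 6 of 56 CpG-poor ones (10.7%) had a peak near an end, beside 37.9% and 10.4% of all genes. The median CpG ratio, taking the highest window of a gene, was 0.657 for the 34 carriers with an ADA-treated peak and 0.206 for the 51 without, and over all genes it was 0.800 and 0.305. Proximal tubule carriers with an ADA-treated peak had a median of 0.381 (9 genes), and the other carriers 0.737 (25 genes). Of the 6 CpG-rich proximal tubule carriers, Slc13a3, Slc16a9, Slc22a4 and Slc22a5 had an ADA-treated peak, while Slc5a8, a sodium-coupled lactate carrier, and Slco4c1, the kidney organic anion polypeptide, had none in either list.

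**Figure D2:**
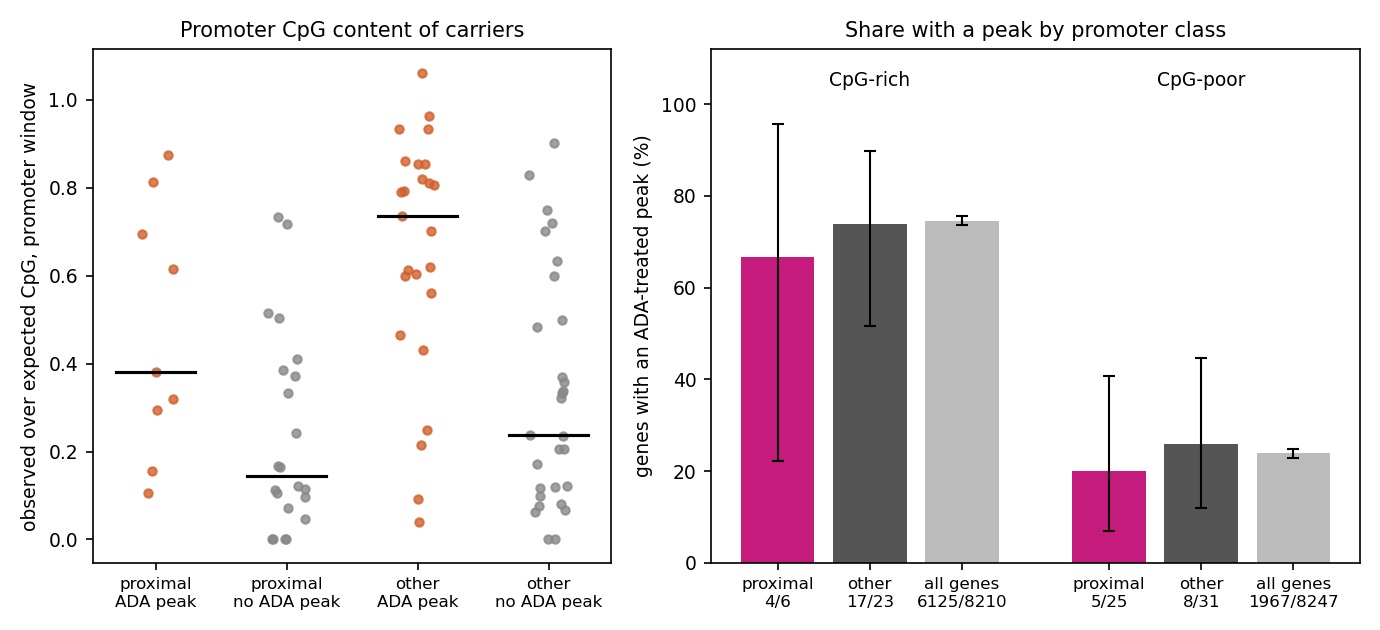
Left, observed over expected CpG in the promoter window (vertical axis, ratio) of 85 carriers, by group and by presence of an ADA-treated peak, with black lines at the medians (0.381, 0.143, 0.737 and 0.237 from left to right). Right, percentage of genes with an ADA-treated peak within 2 kb of an end, by promoter class, with exact 95% binomial intervals as bars and gene counts under the axis.

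Among the 85 carriers with a known strand, the ADA-treated list marked the 5′ end of 30 (35.3%) and the 3′ end of 9 (10.6%), with 5 counted at both, beside 45.6% and 13.9% of all genes. The untreated list marked the 5′ end of 11 (12.9%) and the 3′ end of 5 (5.88%), beside 20.8% and 6.30%. Proximal tubule carriers had an ADA-treated peak at the 5′ end in 6 of 31 (19.4%) and at the 3′ end in 3 (9.68%), and the others in 24 of 54 (44.4%) and 6 (11.1%). In the untreated list the proximal tubule counts were 2 of 31 (6.45%) at the 5′ end and 3 (9.68%) at the 3′ end, and the others 9 of 54 (16.7%) and 2 (3.70%). The midpoint of the strongest ADA-treated peak at the 5′ end lay downstream of it in 24 of 30 carriers (80.0%, beside 76.4% of all such genes). That peak covered the annotated end itself in 13 of 30 (43.3%, beside 69.8%). Counting only peaks over a promoter window, the ADA-treated list marked 4 of 31 proximal tubule carriers (12.9%) and 19 of 54 others (35.2%), beside 41.5% of all genes, and the untreated list 1 and 6. By promoter class, 18 of 29 CpG-rich carriers (62.1%, beside 71.0% of all such genes) and 5 of 56 CpG-poor ones (8.93%, beside 12.1%) had an ADA-treated peak over a window. For the untreated list these were 5 of 29 (17.2%, beside 28.9%) and 2 of 56 (3.57%, beside 3.43%).

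**Figure D3:**
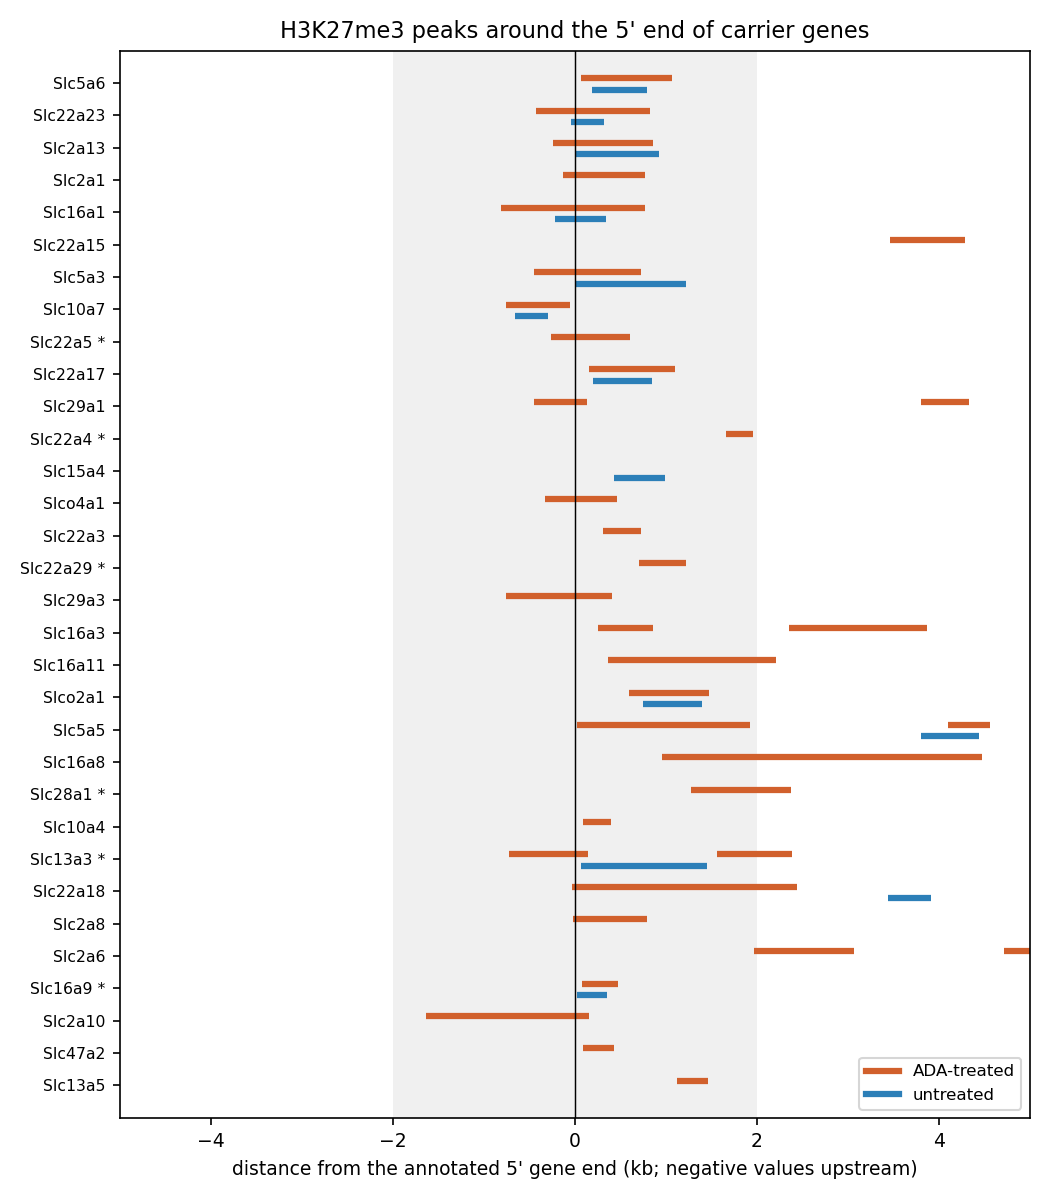
H3K27me3 peaks as bars around the annotated 5′ end of 32 carriers of known strand with a peak nearby, up to 5 kb away (horizontal axis, kb, negative values upstream), with proximal tubule carriers starred and the 2 kb zone shaded. Genes run from the highest pileup at the top (Slc5a6, 20.9) to the lowest. Most bars touch the start or lie downstream of it, those of Slc10a7 lie upstream, and that of Slc22a15 lies beyond the shaded zone.

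The strongest carrier peaks near a gene end lay at Slc5a6, Slc22a23 and Slc2a13, none of them on the proximal tubule list. The multivitamin carrier gene Slc5a6 had a pileup of 20.9 in the ADA-treated library (chr5:31047856-31048862) and 10.6 in the untreated one, in the same place, with fold enrichments of 5.18 and 2.74. Both of its peaks also lie in the neighbouring gene Atraid. Slc22a23, a carrier with no settled substrate, had 18.9 (chr13:34344445-34345707) and 12.3. Slc2a13, the proton-coupled myo-inositol carrier, had 18.1 (chr15:91572404-91573497) and 11.3. In all 3 the ADA-treated pileup was the higher one, and the untreated peak overlapped it.

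Slc16a1 had a pileup of 17.97 in the ADA-treated library (chr3:104637852-104639434) and 10.99 in the untreated one (chr3:104638446-104639008), and both peaks overlap the promoter window printed above. Slc5a3, the osmolyte myo-inositol carrier, had 17.5 (chr16:92057876-92059052) and 10, under peaks that also lie in Mrps6. Slc10a7, a carrier family member tied to cellular calcium and protein glycosylation, had 17.1 and 10.4, and both peaks lay outside it in the neighbouring gene Rbmxl1, 57 and 296 bp away. Slc22a17, also described as a receptor for lipocalin 2, had 16.04 (chr14:54912027-54912982) and 10.4. Together with Slc2a1 and Slc22a5, these were the 9 carriers whose ADA-treated pileup near an end exceeded 15.1, the upper quartile over all genes with such a peak. These 9 made up 19.6% of the 46 carriers called. Slc29a4 (18.8), Slc22a15 (17.6) and Slc5a10 (15.3) also exceeded this pileup, with ADA-treated peaks inside the gene.

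Where both lists had a peak near a carrier, the positions mostly coincided. The strongest peaks of the pair overlapped in 13 of 15 carriers (86.7%, 59.5 to 98.3%), beside 84.1% of all genes marked in both. The exceptions were Slc22a12, which encodes the urate carrier URAT1, and Slc16a3, which encodes the lactate exporter MCT4. At Slc16a3 the ADA-treated peak (chr11:120948732-120949344, pileup 12.3) was the strongest near an end and lay by the start, while the untreated one (chr11:120957912-120959344, 10.1) reached into Csnk1d at the far end. A weaker ADA-treated peak (chr11:120957152-120959196, 11.4) overlapped the untreated one there. The ADA-treated pileup was the higher of the pair in 14 of 15 carriers, beside 89.1% of all genes marked in both. Slc16a9, a carnitine efflux carrier of the proximal tubule, was the exception, with 10.2 in the ADA-treated and 10.5 in the untreated library.

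**Figure D4:**
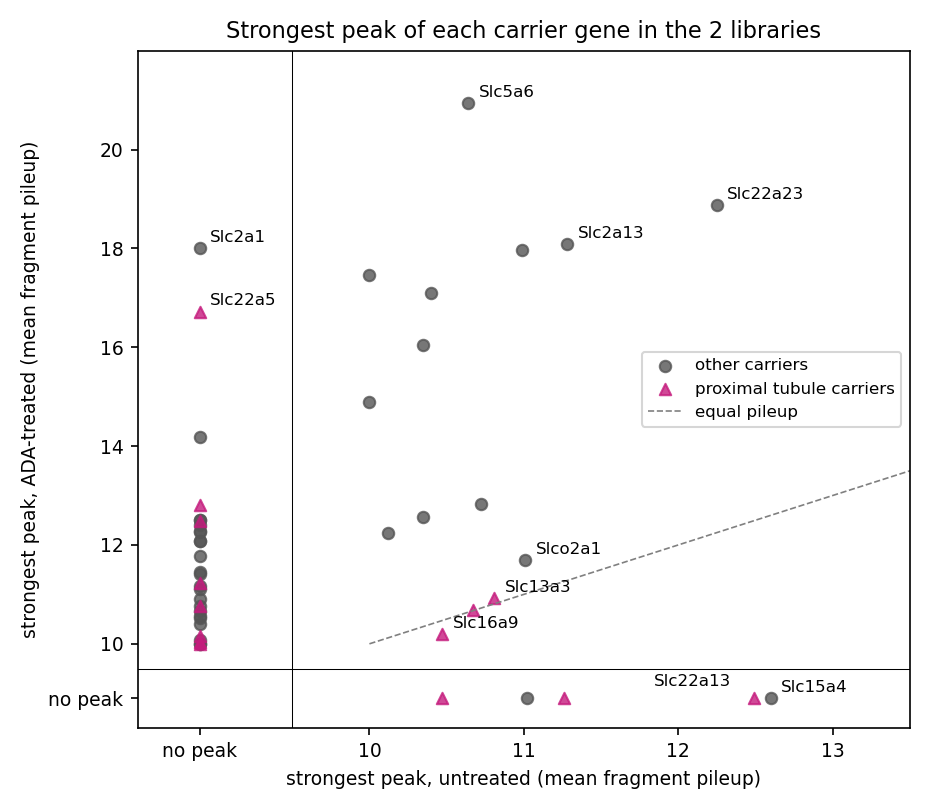
Mean fragment pileup of the strongest peak near a gene end in the untreated (horizontal axis) and the ADA-treated library (vertical axis) for the 51 carriers with a peak, with genes that lack a peak in a list on the "no peak" lines. The axes differ in scale and the dashed line marks equal pileup. Untreated pileups stay between 10 and 12.6, while ADA-treated ones reach 20.9.

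Among the facilitative sugar carriers, 8 of 12 Slc2 genes (66.7%, 34.9 to 90.1%, beside 49.0% of all genes) had an ADA-treated peak near an end. An untreated one lay near 1, Slc2a13 (8.33%, 0.211 to 38.5%, beside 24.1%). Slc2a1, which encodes the widespread glucose carrier GLUT1, had a pileup of 18.01 over its start in the ADA-treated library (chr4:119108615-119109519). Its untreated peak lay inside the gene (chr4:119131285-119131720, pileup 11.3) and none lay at the start. Slc2a4, which encodes the insulin-responsive carrier GLUT4, had 14.2 (chr11:69948074-69948666) in the ADA-treated list and none within 2 kb in the untreated one. The remaining ADA-treated peaks near an end, at Slc2a3, Slc2a6, Slc2a7, Slc2a8 and Slc2a10, had pileups of 10.4 to 11.1. Farther inside Slc2a10 lay a stronger ADA-treated peak of 12.7 and an untreated one of 10.5.

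Of the sugar carriers of the proximal tubule, Slc2a2 had none over the gene or its 2 kb flanks in either library. Slc2a5, which encodes the fructose carrier GLUT5, had peaks inside the gene alone, at different places, with pileups of 11.4 (ADA-treated) and 10.5 (untreated). Slc5a2, which encodes the main glucose uptake carrier SGLT2, had an ADA-treated peak over the gene (chr7:128269159-128270807) with a pileup of 10.8 and no untreated peak. Slc5a1, which encodes SGLT1, had an untreated peak of pileup 10 inside the gene and no ADA-treated peak. The peaks of Slc2a5, Slc5a1 and Slc5a2 had pileups of 10 to 11.4, close to the smallest one listed. Those of Slc5a10 ran from 10.15, near its end, to 15.3, inside the gene, in the ADA-treated list.

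Of the 13 Slc5 genes, 5 had an ADA-treated peak near an end (38.5%, 13.9 to 68.4%, beside 49.0% of all genes). Slc5a3 and Slc5a6, 2 of the 13, had an untreated one (15.4%, 1.92 to 45.4%, beside 24.1%). Slc5a10, a sugar carrier of the proximal tubule, had 4 ADA-treated peaks over its body with a highest pileup of 15.3 (chr11:61683682-61687013), and 1 of 11.3 in the untreated list at the same place. The strongest one also lies in Fam83g, as do its untreated partner and 2 of the others, and the peak near its end lies in the neighbouring gene Grap. Slc5a5, the iodide carrier gene of the thyroid, had 11.5 just downstream of its start in the ADA-treated list. Slc5a8, Slc5a11 and Slc5a12 had none over the gene in either list.

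Among the families of more than 10 genes, the monocarboxylate carriers had the highest share of untreated calls. An ADA-treated peak lay near an end of 9 of 13 Slc16 genes (69.2%, 38.6 to 90.9%, beside 49.0% of all genes). An untreated one lay near 5 of these 9 (38.5% of the family, 13.9 to 68.4%, beside 24.1%), and both intervals hold the share of all genes. Besides Slc16a1, Slc16a3 and Slc16a9, these were Slc16a5 (12.8 in the ADA-treated and 10.7 in the untreated library) and Slc16a7, which encodes the lactate and pyruvate carrier MCT2 (12.6 and 10.4). Slc16a11 and Slc16a13 share 1 ADA-treated peak (chr11:70214061-70215905, pileup 12.1), which lies in Slc16a11, and Slc16a13 has a peak of its own with 11.8. Slc16a8, a lactate carrier gene of the retinal pigment epithelium, had the longest peak of the carriers near an end (3516 bp, pileup 11.4), although its promoter window holds 1 CpG.

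Organic ion carriers held the most proximal tubule genes. An ADA-treated peak lay near an end of 4 of 16 proximal tubule Slc22 genes and of 5 of 9 others, and an untreated one of 4 and 2. Over the family these were 9 of 25 (36%, 17.97 to 57.5%, beside 49.0% of all genes) and 6 of 25 (24%, 9.36 to 45.1%, beside 24.1%). Slc22a5 had the highest pileup of all proximal tubule carriers, 16.7 in the ADA-treated library (chr11:53891189-53892058), over the CpG-rich promoter window printed above, and no untreated peak. Its neighbours on chromosome 11, Slc22a4, which encodes the ergothioneine carrier OCTN1, and Slc22a21, a carnitine carrier gene of the same cluster, had ADA-treated pileups of 12.8 (chr11:54028078-54028378) and 10.5. All 3 genes of this cluster thus had an ADA-treated peak and none an untreated one.

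Slc22a6 had no peak over the gene or its flanks in either list. Slc22a8, which encodes OAT3, had an untreated peak 1005 bp beyond the gene (chr19:8612840-8613181, pileup 11.3) and no ADA-treated one. Slc22a2, which encodes the organic cation carrier OCT2, had none over the gene or its flanks in either list, while the adjacent Slc22a3, which encodes OCT3, had an ADA-treated pileup of 12.5 (chr17:12506980-12507391). Slc22a18, a neighbour of other imprinted genes on chromosome 7, had ADA-treated peaks near its ends that reached 10.9.

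Slc22a12 had 10.7 in both libraries, at places that did not overlap, the ADA-treated one 1418 bp outside the gene. Slc22a7, which encodes OAT2, and Slc22a13, an organic anion carrier gene, were marked in the untreated list alone, with pileups of 10.5 (chr17:46437594-46438164) and 12.5 (chr9:119192481-119192881). Of the 5 carriers marked in the untreated list alone, 3 were therefore proximal tubule Slc22 genes. Slc15a4, a lysosomal peptide and histidine carrier gene, and Slc29a4, a monoamine carrier gene, were the others, with 12.6 and 11.02.

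Both of these others had an ADA-treated peak elsewhere in the gene. At Slc29a4 it lay over the annotated promoter window with a pileup of 18.8 (chr5:142701414-142702538), while the untreated peak lay in the neighbouring gene Tnrc18. At Slc15a4 the ADA-treated peak over the promoter window had 12.9 (chr5:127616844-127617786). Slc22a15, an organic ion carrier gene, likewise had a pileup of 17.6 over its promoter window (chr3:101923937-101924757), with none near the ends that the gene table gives. Of the 103 carriers, 9 (8.74%) had an ADA-treated peak over the body and none near an end, and 11 (10.7%) an untreated one. For comparison, 53.9% of all genes had an ADA-treated peak near an end or over the body, and 49.0% one near an end. In the untreated list these shares of all genes were 29.5% and 24.1%.

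Among the dicarboxylate and sulfate carriers, 3 of 5 Slc13 genes had an ADA-treated peak near an end (60%, 14.7 to 94.7%, beside 49.0% of all genes). An untreated one lay near 1 (20%, 0.505 to 71.6%, beside 24.1%). Slc13a3, which encodes the basolateral dicarboxylate carrier NaDC3, had 4 ADA-treated peaks over the gene and 2 untreated ones, with 10.9 (chr2:165473056-165473919) and 10.8 (chr2:165471747-165473126) at the start, where they overlapped by 71 bp. Slc13a2, which encodes the apical carrier NaDC1, and the citrate carrier gene Slc13a5 had ADA-treated pileups of 10.04 and 10. Neither Slc15a1 nor Slc15a2, which encode the peptide carriers PEPT1 and PEPT2, had a peak over the gene or its flanks, and the same held for the bile acid carrier genes Slc10a1 and Slc10a2.

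The concentrative nucleoside carrier gene Slc28a1 had an ADA-treated pileup of 11.2 (chr7:81114540-81115644) over its CpG-poor promoter window, and an untreated peak of 10 further inside the gene. The equilibrative carrier genes Slc29a1 and Slc29a3 had ADA-treated peaks over their 5′ ends, with 10.1 and 12.3. Farther inside, Slc29a1 had stronger ADA-treated peaks of 13.3 and 10.8, and Slc29a3 an untreated one of 10.7. Slc47a1 and Slc47a2, the drug extruder genes MATE1 and MATE2, share 1 ADA-treated peak at the caller's limit (chr11:61342432-61342768, pileup 10), which lies in Slc47a2, and Slc47a1 has another inside the gene with 11.1. The 46 ADA-treated calls rested on 51 distinct peaks, and these 2 pairs each shared one.

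The Slco1 cluster and the Slc22a19 to Slc22a30 cluster stood in stretches with almost no peaks. The 6 Slco1 genes span 799 kb of chromosome 6, with no peak in either list, where autosomes held 7.13 ADA-treated and 3.28 untreated peaks per Mb. They include Slco1a1 and Slco1a6, anion carrier genes of the proximal tubule, and Slco1b2, the liver carrier gene. The 6 Slc22 genes from Slc22a19 to Slc22a30 span 732 kb of chromosome 19, with 1 ADA-treated peak (1.37 per Mb), at Slc22a29 (chr19:8252155-8252669, pileup 12.5), and no untreated one. Slco4c1, Slco6c1 and Slco6d1 had no peak near an end. The genes within a cluster are close copies of each other, and how reads with more than 1 match were treated is not stated in the labels or the files, so a missing peak in these stretches is uncertain.

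Of the 14 Slco genes, 4 had an ADA-treated peak near an end (28.6%, 8.39 to 58.1%, beside 49.0% of all genes) and 2 an untreated one (14.3%, 1.78 to 42.8%, beside 24.1%). Slco3a1, a prostaglandin and thyroid hormone carrier gene, had 14.9 (chr7:74554061-74555333) and 10, and the prostaglandin carrier gene Slco2a1 had 11.7 (chr9:103007656-103008531) and 11.01. Slco2a1 also had the most ADA-treated peaks over the body of any carrier, 5. Slco4a1, a thyroid hormone carrier gene, and Slco5a1 had 12.5 and 11.8 in the ADA-treated list alone.

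Other genes of drug handling were read in the same way, from a list of 21 efflux pumps, scaffold proteins and regulators. An ADA-treated peak lay near an end of 11 of 21 (52.4%, 29.8 to 74.3%) and an untreated one of 9 (42.9%, 21.8 to 65.98%), beside 49.0% and 24.1% of all genes. Ppara, a nuclear receptor of fatty acid use, had the highest pileups, 21.1 (chr15:85734712-85736105) and 16.1 (chr15:85735269-85735986). Hnf4a, a regulator of proximal tubule genes, had 10.2 in the untreated list alone. The efflux pump gene Abcc4 had 17.3 in the ADA-treated list alone, while Abcc2 and Abcg2, pumps of the apical membrane, had none over the gene or near its ends.

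Calls depended on the limit of 2 kb, more so in the untreated list. With 5 kb around either end the ADA-treated count rose from 46 to 51 carriers (49.5%, beside 53.8% of all genes). The untreated count rose from 20 to 27 (26.2%, beside 28.9%). At 2 kb, the farthest ADA-treated peak counted lay 1720 bp from an end of Slc13a2 (pileup 10.04), and the nearest one left out 2795 bp from Slc22a7 (10.5). For the untreated list these were 1825 bp at Slc29a4 (11.02) and 2051 bp at Slc22a14 (12.5), whose peak is the one counted at the neighbouring Slc22a13. The strongest ADA-treated peak lay outside the gene in 6 of the 46 carriers called, and the strongest untreated one in 4 of 20. All 20 untreated calls had pileups of 10 to 12.6 and none had a deposited q of at most 5%, a level reached by 2.25% of all genes in that list.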

How the data were processed

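H3K27me3 ChIP-seq peaks of 1 ADA-treated and 1 untreated library were used, and the input entered through the peak calling alone. The authors called peaks with MACS 2.1.2 in broad mode at p 0.001, for each library against a separately named input, with paired-end fragments and the local background off, per the file headers. The labels list 1 input, and which of these it is could not be settled. The deposited signal is the fragment pileup, the deposited fold is a ratio to a constant background, and the deposited −log10 p and −log10 q are the caller's. The submitters' processing notes name CASAVA 1.4 and mm9. Peak midpoints, however, lay within 1 kb of a GRCm38 gene end in 45.0% and 43.8%, against 7.77 to 8.62% with genes shifted by 10 kb, so positions are read as GRCm38 (1-based). The peak lengths in bp are those of the deposited files.

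A gene was called when a peak overlapped, by at least 1 bp, the 2 kb on both sides of either end, or its body. Strand and CpG came from RefSeq promoter windows, matched by gene ID for 85 of 103 carriers. Analysis used Python 3.11.15, numpy 2.4.6, pandas 2.3.3, scipy 1.17.1 and matplotlib 3.10.9. Gene calls were identical to those of bedtools 2.31.1 and, on simulated data, recovered 200 of 200 planted genes. No test between groups was run. Coordinates were given for up to 4 genes per family and class, ranked by caller p, and for 12 carriers fixed by name. Values inside the genes Slc2a5, Slc2a10, Slc5a10, Slc15a4, Slc16a13, Slc22a15, Slc28a1, Slc29a1, Slc29a3, Slc29a4 and Slc47a1, and those of Slc16a3, Slc22a14, Slc22a18, Slc22a21 and Ppara, were added after they were seen. The proximal tubule, segment and drug handling lists came from textbook knowledge. The members and lists were chosen with earlier results of these data known. Alternatives were stricter peaks, lists of equal length and other gene windows. Values of some single genes are not reported here.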

Additional observations from a re-analysis of the deposited data

How the results depend on the processing

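Of 29 recomputed counts, 13 stayed within 1.5 times the reported count and 16 did not. The ADA-treated count of 46 carriers became 29 at a q of at most 5%, 23 at a pileup of at least 12, 23 with the list cut to the 8074 strongest peaks and 20 with a gene end inside the peak. The proximal tubule count of 11 became 4, 3, 3 and 2 under the same settings. The untreated count of 20 carriers became 0, 3 and 4 at the q, pileup and gene end settings and 31 over the whole gene with 2 kb flanks, and the untreated proximal tubule count of 6 became 0, 1, 0 and 10. Stricter settings drop peaks by construction, and 40.2% and 2.25% of all genes kept a call at a q of at most 5%. Under every setting tried the ADA-treated share was lower for proximal tubule than for other carriers, from 5.41% against 27.3% (gene end inside the peak) to 32.4% against 65.2% (whole gene with flanks). For the untreated list this was also so, except at the q setting, where both were 0. With lists of equal length the ADA-treated list marked 23 of 103 carriers and the untreated list 20, beside 34.0% and 24.1% of all genes. No paired analysis was possible because each group has 1 library. Pileups near 10 fragments limit what a missing peak can show. Carriers were also below all genes in the ADA-treated list at each stricter setting, from 19.4% against 32.7% (gene end inside the peak) to 28.2% against 40.2% (q). At the authors' threshold and within 2 kb the shares were 44.7% against 49.0%.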
